A study of Mus musculus with 2 samples.

Results

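The 10 genes described here carry Wnt and R-spondin signals in the adrenal cortex. They were listed by name for their known part in cortical zonation, with earlier results of these data known, and are 10 of 55536 genes in the gene table. They are the ligands Wnt4, Rspo1 and Rspo3, the R-spondin receptors Lgr4 and Lgr5, the ubiquitin ligases Znrf3 and Rnf43, the transducer Ctnnb1, and the pathway genes Axin2 and Lef1. All 10 were detected in both animals, at a level of at least 1 TPM (a level scaled to a fixed total per library and corrected for transcript length). Ctnnb1 stood highest at 240 ± 22.6 TPM (SD, n = 2) and Rnf43 lowest at 1.68 ± 0.205 TPM.

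In canonical Wnt signalling, a Wnt ligand that binds a Frizzled receptor and its LRP co-receptor stops the destruction of β-catenin, which then acts with TCF and LEF factors on target genes. The ubiquitin ligases Znrf3 and Rnf43 remove Frizzled receptors from the cell surface, and R-spondins, bound by LGR receptors, take these ligases away. In the mouse adrenal, R-spondins are made in the capsule and Wnt4 in the zona glomerulosa beneath it, and the pathway's activity falls toward the zona fasciculata.

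Adrenal glands of 2 female mice of strain B6CASTF1/J, an F1 cross of C57BL/6J with CAST/EiJ, were profiled at 18 to 20 months of age by strand-keeping total RNA-seq with reduced ribosomal RNA. The labels name no treatment, no engineered allele and no second group, so no conditions could be compared. The animals are called 1 and 2 after their biological replicate numbers. For animal 2 a descriptive field still carries the name of the female used for animal 1, another field names a different female, and both share 1 donor identifier, so separate animals rest on the replicate numbers and tissue samples. Total expected counts were 35769717 and 35135703. Counts differed beyond counting error for 60.82% of genes that averaged at least 50 counts, so the files are not 1 library deposited in duplicate. The labelled tissue showed all 7 markers of the steroidogenic cortex, with summed levels of 15669 and 20106 TPM. The markers were mixed: 3 (Cyp11b1, Cyp11a1 and Mc2r) had more TPM in animal 1 and 4 in animal 2. Among the 4 was Star, at 2984 and 5374 TPM. In whole tissue, fewer cells of a type and less RNA per cell cannot be told apart.

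The DNA before the start sites of 5 members is shown because they include the members furthest apart between the animals in each direction (Wnt4 and Rspo1, Lgr4), a target gene (Axin2) and a gene with several separated starts (Lef1, of which the upstream start and 1 inside the gene are shown). Each stretch holds the 100 bases of the plus strand that end just before the first annotated start, from the RefSeq promoter table on GRCm38.p6, the assembly also called mm10. Capitals mark CG dinucleotides.
Wnt4, chr4:137277389-137277488: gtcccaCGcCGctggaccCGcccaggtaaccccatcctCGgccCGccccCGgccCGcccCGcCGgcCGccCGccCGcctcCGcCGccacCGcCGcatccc
Rspo1, chr4:124986330-124986429: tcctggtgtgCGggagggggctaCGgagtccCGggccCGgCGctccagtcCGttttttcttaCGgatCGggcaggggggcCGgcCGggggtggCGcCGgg
Lgr4, chr2:109917547-109917646: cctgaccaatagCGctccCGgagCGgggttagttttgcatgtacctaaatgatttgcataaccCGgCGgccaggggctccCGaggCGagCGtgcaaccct
Axin2, chr11:108920249-108920348: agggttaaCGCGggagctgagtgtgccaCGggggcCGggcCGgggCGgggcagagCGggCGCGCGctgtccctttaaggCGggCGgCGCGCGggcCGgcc
Lef1, upstream start, chr3:131110197-131110296: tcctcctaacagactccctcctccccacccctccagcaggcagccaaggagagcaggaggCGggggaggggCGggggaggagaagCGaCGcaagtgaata
Lef1, a start inside the gene, chr3:131112691-131112790: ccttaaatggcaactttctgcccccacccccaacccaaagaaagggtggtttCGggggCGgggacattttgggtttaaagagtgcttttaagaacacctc
These stretches held 16 CG dinucleotides for Wnt4 and 16 for Axin2, 12 for Rspo1 and 8 for Lgr4. The upstream Lef1 stretch held 4, and the one shown from inside the gene 2. In the whole 300-base promoter windows, Wnt4 had 51 CG dinucleotides, Axin2 31, Rspo1 29 and Lgr4 18, against a median of 7 over all 32851 windows of the table. Ctnnb1 had up to 51, and Lef1 18 at the upstream start but 8 and 5 inside the gene. The windows of Rnf43 had 10 and 3, so not all members lay far above the median.

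The levels fell into steps, shown in the plot of levels by gene. Ctnnb1 lay above Lgr4 in both animals, Lgr4 and Wnt4 overlapped, and Wnt4 lay above Axin2, with no overlap over the animals. Axin2 in turn lay above Znrf3. Znrf3, Lgr5 and Rspo3 followed, and neighbours among these 3 overlapped. Lef1 and then Rspo1 lay lower without overlap with the gene above, while Rspo1 and Rnf43 overlapped at the bottom. Among the 11552 protein-coding genes detected in both animals, the members ranged from percentile 5.83 for Rnf43 to percentile 98.5 for Ctnnb1.

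**Figure D1:**
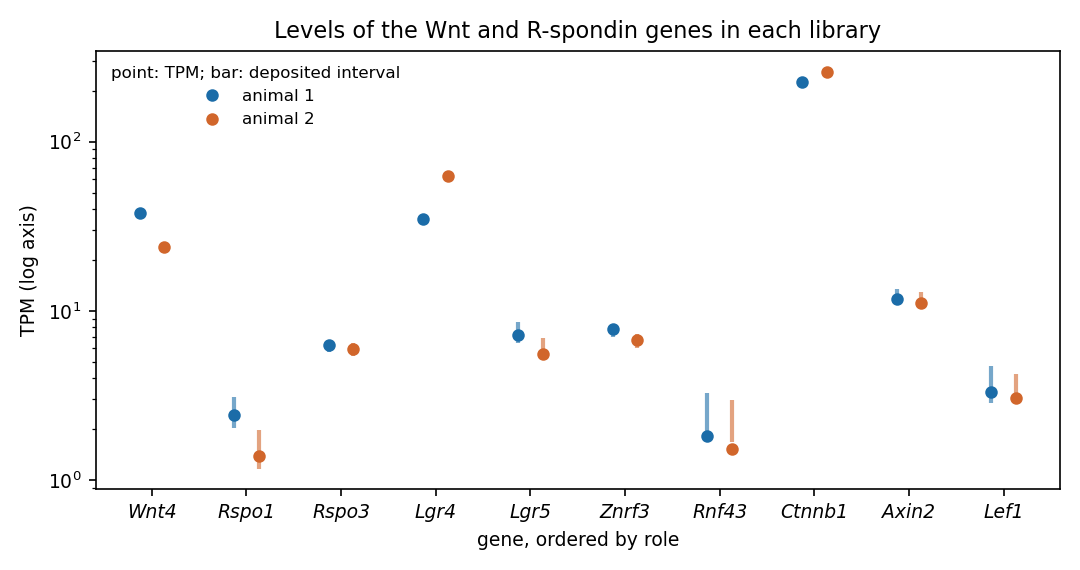
Level of each gene in TPM on a log axis, with animal 1 in blue and animal 2 in orange; vertical bars are the deposited interval of each library's TPM. Ctnnb1 is highest in both animals, Wnt4 is higher in animal 1 (37.9 against 24.0 TPM), and Lgr4 is higher in animal 2 (62.8 against 34.9 TPM).

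Among the ligands, Wnt4, which is needed for the identity of glomerulosa cells, was the most abundant. Wnt4 (ENSMUSG00000036856.4, mm10 chr4:137277489-137299726, plus strand) had 37.9 TPM in animal 1, against 24.0 TPM in animal 2, from 6026 and 3483 expected counts. The deposited TPM interval of animal 1, from 36.3 to 38.1, lay wholly above that of animal 2, from 22.7 to 24.3. After TMM scaling, which equalises libraries on the bulk of their genes, Wnt4 was 1.63-fold higher in animal 1. Scaled by the spiked-in ERCC RNAs instead, it was 1.40-fold higher in animal 1.

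Both capsular R-spondins were present, and Rspo3, the one required for cortical zonation, exceeded Rspo1. Rspo3 (ENSMUSG00000019880.10, chr10:29452416-29535867, minus strand) had 6.27 and 5.98 TPM in animals 1 and 2, from 719 and 608 expected counts, with overlapping intervals. Rspo1 (ENSMUSG00000028871.7, chr4:124986430-125009099, plus strand) had 2.44 and 1.40 TPM, from 151 and 86 counts. Its intervals, 2.02 to 3.12 in animal 1 and 1.17 to 1.99 in animal 2, did not overlap but lay close together. Rspo1 was thus higher in animal 1, by 1.65-fold with TMM and 1.42-fold with spike-in scaling, while Rspo3 was nearly level. Rspo3 exceeded Rspo1 by 2.57-fold in animal 1 and 4.27-fold in animal 2, a mean log2 ratio of 1.73 ± 0.52 (SD, n = 2). Wnt4 exceeded Rspo3 by 6.04-fold and 4.01-fold, a log2 ratio of 2.30 ± 0.42.

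Of the receptors for R-spondins, Lgr4 far exceeded Lgr5. Lgr4 (ENSMUSG00000050199.13, chr2:109917647-110014257, plus strand) had 34.9 TPM in animal 1, against 62.8 TPM in animal 2, from 6452 and 10345 counts. Its intervals, 33.4 to 35.5 and 60.1 to 63.4 TPM, were far apart, with animal 2 higher by 1.70-fold under TMM and 1.98-fold under spike-in scaling. Lgr5 (ENSMUSG00000020140.15, chr10:115450311-115587780, minus strand), a stem cell marker in intestine, had 7.25 and 5.58 TPM from 985 and 867 counts, and its intervals overlapped. Lgr4 exceeded Lgr5 by 4.82-fold in animal 1 and 11.3-fold in animal 2, a log2 ratio of 2.88 ± 0.87 (SD, n = 2). The direction was the same in both animals, and the spread of this ratio was the widest of the 6 ratios planned. Lgr4 and Wnt4 changed places: Lgr4 lay 1.08-fold below Wnt4 in animal 1 and 2.62-fold above it in animal 2. In the second deposited quantification, however, Lgr4 lay above Wnt4 in animal 1 too, with 70.5 against 65.9 TPM.

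Of the ubiquitin ligases that oppose the pathway, Znrf3 exceeded Rnf43 in both animals. Znrf3 (ENSMUSG00000041961.14, chr11:5276324-5444847, minus strand) had 7.79 and 6.78 TPM from 1427 and 1174 counts, with overlapping intervals. Rnf43 (ENSMUSG00000034177.15, chr11:87662722-87735539, plus strand) had 1.82 and 1.53 TPM from 198 and 182 counts, also with overlapping intervals. Znrf3 exceeded Rnf43 by 4.28-fold and 4.43-fold, a log2 ratio of 2.12 ± 0.04 (SD, n = 2). The size of this ratio depended on how Rnf43 was quantified: it was 1.55 in the second quantification and 3.21 over protein-coding transcripts alone. For Rnf43 in animal 2, the printed level of 1.53 TPM lay below its own deposited interval of 1.68 to 2.97 TPM.

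Ctnnb1, which encodes β-catenin (ENSMUSG00000006932.17, chr9:120929216-120960507, plus strand), had 224 and 256 TPM in animals 1 and 2, from 19779 and 20938 counts. Its intervals, 214 to 231 and 244 to 262 TPM, did not overlap, although the animals differed by only 1.12-fold under TMM and 1.31-fold under spike-in scaling. At this depth an interval can separate small differences, and it covers the quantification of 1 library, not the variation among animals.

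Axin2, both a scaffold of the β-catenin destruction complex and a widely used target gene (ENSMUSG00000000142.15, chr11:108920349-108950783, plus strand), had 11.7 and 11.1 TPM from 1379 and 1199 counts. Lef1, a transcription factor that binds β-catenin and is itself a target in many tissues (ENSMUSG00000027985.14, chr3:131110471-131224356, plus strand), had 3.31 and 3.05 TPM from 375 and 355 counts. The intervals of both genes overlapped between the animals. Ctnnb1 exceeded Axin2 by 19.2-fold and 23.0-fold, a log2 ratio of 4.39 ± 0.19 (SD, n = 2). Axin2 exceeded Lef1 by 3.53-fold and 3.65-fold, a log2 ratio of 1.84 ± 0.03. Axin2 and Lef1 were thus closer between the animals than Wnt4, Rspo1 or Lgr4.

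Across the 10 members, the intervals lay apart with animal 1 higher for Wnt4 and Rspo1, which is 2 of 10 against 12.3% of the 13569 genes that averaged at least 50 counts. They lay apart with animal 2 higher for Lgr4 and Ctnnb1, which is 2 of 10 against 20.7% of those genes. For the other 6 they overlapped. None of the 10 was at least 2-fold apart with separate intervals, against 3.46% of those genes. With so few members, these shares do not set the members apart from the background. No p-value is given for these counts, since 1 library per animal and no second group leave no test. None is given for the ratios between members, since an exact sign-flip test over 2 animals cannot go below a two-sided p of 0.5.

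The log2 ratio of animal 2 over animal 1 had a median of -0.11 over the members with TMM and -0.01 over the 17012 genes that averaged at least 10 counts. Spike-in scaling moved the median over all genes to 0.21 and that of the members to 0.11, so the sign of the members' median depended on the scaling. With TMM 7 members were lower in animal 2, and with spike-in scaling 2 were, Wnt4 and Rspo1. Rspo3, Lgr5, Znrf3, Rnf43 and Axin2 changed sign between these scalings, from values between -0.20 and -0.04 to values between 0.02 and 0.18. Lef1 was at 0.00 with TMM, -0.01 with DESeq2 size factors and 0.23 with spike-in scaling. Wnt4, Rspo1, Lgr4 and Ctnnb1 kept their direction under TMM, DESeq2, spike-in scaling and the second quantification, as the plot of differences under each scaling shows.

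**Figure D2:**
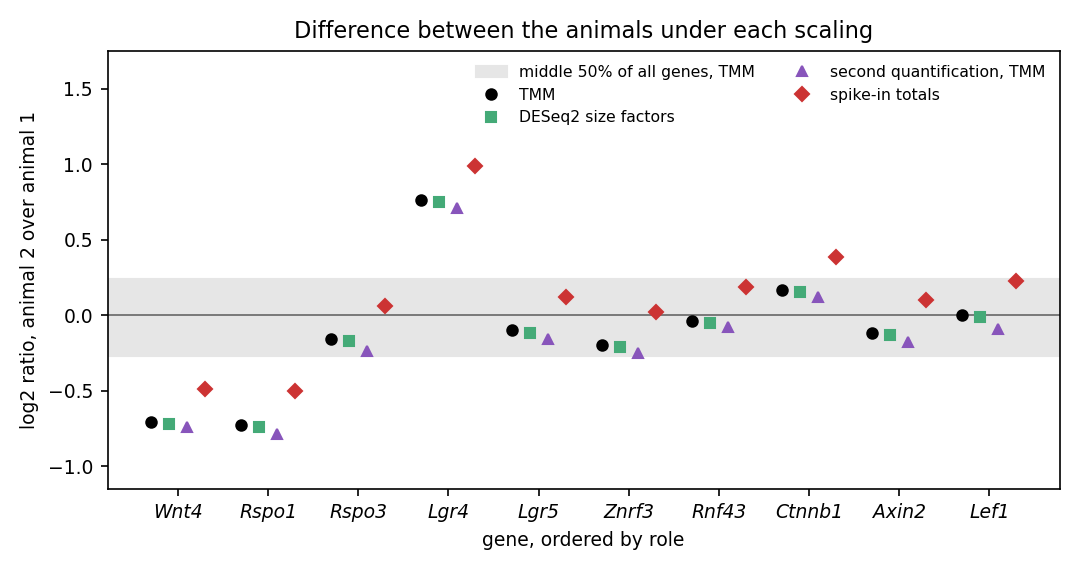
Log2 ratio of animal 2 over animal 1 for each gene under 3 scalings of the gene table and in the second quantification; the grey band spans the middle 50% of all genes under TMM, from -0.27 to 0.24. Wnt4 and Rspo1 lie below the band and Lgr4 above it at every symbol, and the spike-in symbol of each gene is its highest.

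Transcript tables showed which RNAs made up each gene's level, a readout that the list of members did not use. Wnt4 has 1 annotated transcript. Rspo3-201 held 98.4% and 94.5% of Rspo3 TPM in animals 1 and 2, Rspo1-201 held 89.8% and 100% of Rspo1, and Lgr4-201 held 95.2% and 92.7% of Lgr4. Most of the Lgr4 difference therefore lay in 1 protein-coding transcript, which stood at 33.3 and 58.2 TPM. Znrf3 was divided among 3 protein-coding transcripts, with Znrf3-201 at 51.6% and 54.1%, Znrf3-203 at 27.2% and 28.2%, and Znrf3-202 at 21.2% and 17.7%.

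For Lgr5 the gene level and its coding transcript behaved differently. Lgr5-201, the main coding transcript, stood at 5.03 TPM in animal 1, against 4.99 TPM in animal 2. Lgr5-203, a short processed transcript of 607 bases with no annotated reading frame, stood at 1.96 TPM in animal 1 and was listed at 0 in animal 2. The gap in the Lgr5 gene level, 7.25 against 5.58 TPM, thus lay in Lgr5-203, to which 38.68 expected counts were assigned in animal 1. The second quantification put Lgr5-203 at 0.917 and 0.577 TPM, and the whole gene at 11.7 TPM in each animal.

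For Ctnnb1 a large share of the level lay outside its coding transcripts, as it did for Rnf43. Ctnnb1-201, the full-length coding transcript, held 44.3% and 42.2% of Ctnnb1 TPM, and Ctnnb1-215, a transcript of 1292 bases annotated as a retained intron, held 32.4% and 31.5%. All retained-intron transcripts together made up 44.4% and 41.8% in the first table but 16.8% and 17.4% in the second. Within each table the animals were close, and the tables differed by far more than the animals did. The coding transcript Ctnnb1-214 had 14.7 and 33.2 TPM in animals 1 and 2, with intervals of 8.55 to 22.1 and 22.9 to 39.0 TPM that did not overlap, but the second table put it at 5.86 and 10.6 TPM.

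Axin2-201 held 67.3% and 66.7% of Axin2 in the first table and 50.5% and 49.7% in the second. Lef1-201 held 76.4% and 82.0% of Lef1. Rnf43 was the least settled: its coding transcript Rnf43-209 held 39.0% and 51.3% in the first table, but 34.8% and 0.272% in the second. With 198 and 182 counts over 9 annotated transcripts, the tables did not settle the isoform makeup of Rnf43. In the plot of transcript classes, Wnt4, Rspo3 and Znrf3 stand at a coding share of 100% in both tables. All their annotated transcripts are coding, so the annotation fixed this share.

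**Figure D3:**
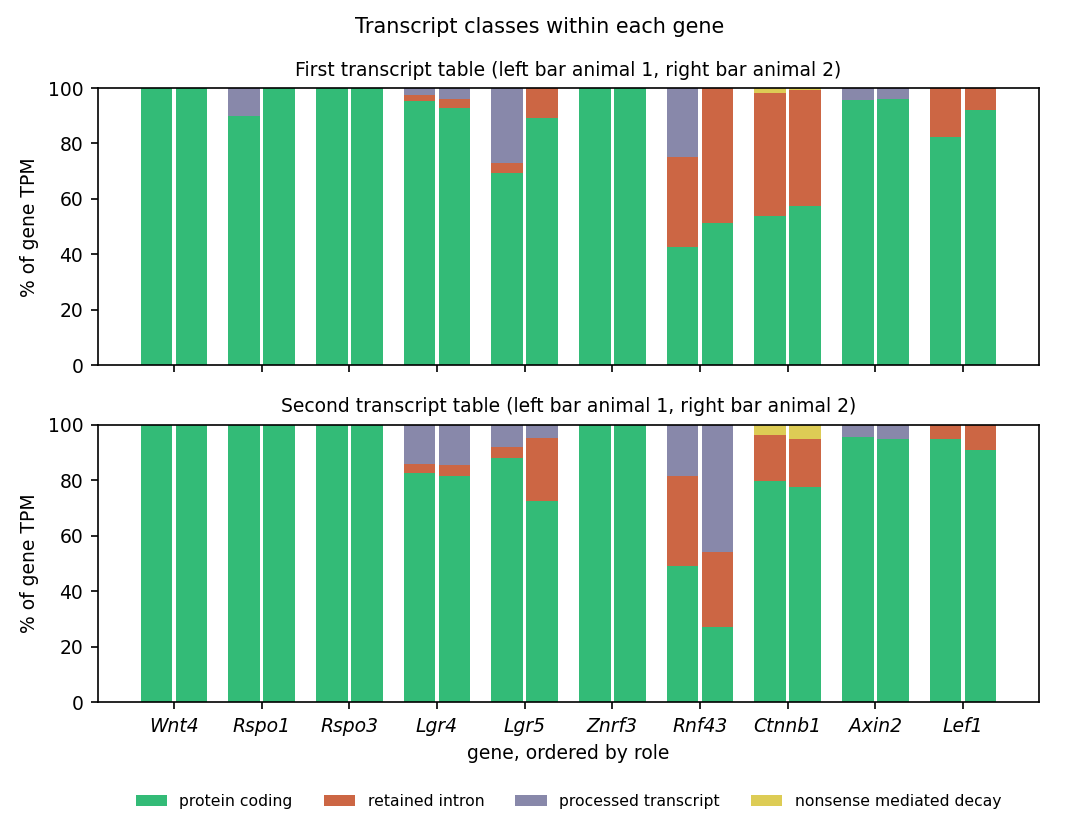
Share of each gene's TPM, in percent, by annotated transcript class, in the first transcript table (top) and the second (bottom), with animal 1 as the left bar and animal 2 as the right bar of each pair. Retained-intron RNA of Ctnnb1 falls from 44.4% and 41.8% in the first table to 16.8% and 17.4% in the second, and the coding share of Rnf43 in animal 2 falls from 51.3% to 27.0%.

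For Lef1, the transcript levels were grouped by annotated start, which does not measure where the RNAs began. Transcripts from the upstream start made up 82.5% and 92.1% of Lef1 TPM, and those from the first start inside the gene made up 3.32% and 7.87%. The latter, Lef1-206 and Lef1-205, are annotated as retained introns. Lef1-208, a retained-intron transcript in neither group, held 14.2% in animal 1 from 4.49 expected counts and was listed at 0 in animal 2. No annotated transcript began near a further RefSeq start inside the gene. The window at the first start inside the gene held 8 CG dinucleotides in 300 bases, and the upstream window 18. The letters CTTTGAT or CTTTGTT, which TCF and LEF factors are known to bind, were searched on both strands of the promoter windows. They occurred in 9.33% of all windows and in none of the 12 windows of 7 members. Rspo3, Lgr5 and Znrf3, which are the members on the minus strand, were not matched in the promoter table. The motif and CG results thus cover plus-strand members only.

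The rest of the pathway was read from lists by role, with 90 genes besides the members, of which 54 were detected. The share of all genes detected is not given here, so the detection counts have no background beside them. Of the 64 that averaged at least 50 counts, intervals lay apart with animal 1 higher for 11 and with animal 2 higher for 20, and overlapped for 33. Over all genes tested, 12.3% lay apart with animal 1 higher and 20.7% with animal 2 higher. Among these 64, 2 genes (Lgr6 and Fzd2) were at least 2-fold apart, both higher in animal 1, against 3.46% of all genes tested. Fzd2, a Wnt receptor named after its values were seen, had 1.83 and 0.79 TPM.

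Wnt4 made up 57.6% of the summed TPM of 19 Wnt ligands in animal 1 and 54.7% in animal 2. Of the other 18 ligands only Wnt5a and Wnt2b were detected in both animals. Wnt5a, mainly a ligand of non-canonical signalling, had 16.3 and 11.3 TPM, with separate intervals and animal 1 higher by 1.48-fold. Wnt2b, a ligand of the adrenal capsule, had 7.05 and 6.19 TPM with overlapping intervals. Wnt6 had 1.19 and 0.83 TPM and Wnt5b 0.71 and 0.32 TPM. Of the 9 other ligands that averaged at least 10 counts, 8 were lower in animal 2 with either scaling. Their median log2 ratio was -0.80 under TMM and -0.58 under spike-in scaling, where that of all genes was -0.01 and 0.21. Only 3 of the 9 averaged at least 50 counts, and of these only Wnt5a had separate intervals. Wls and Porcn, needed for Wnt secretion, were detected in both animals, at 17.2 and 17.8 TPM for Wls and 2.20 and 2.79 TPM for Porcn.

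The remaining relatives of the R-spondins and their receptors were scarce. Rspo2 had 2 counts in animal 1 and none in animal 2, and Rspo4 stood at 0.16 and 0.21 TPM. Lgr6 had 2.08 TPM in animal 1, against 0.62 TPM in animal 2, from 531 and 144 counts, and was 3.47-fold higher in animal 1 under TMM. Thus Lgr6 and Lgr4, relatives that both bind R-spondins, differed between the animals in opposite directions, as the plot of the ligand and receptor families shows.

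**Figure D4:**
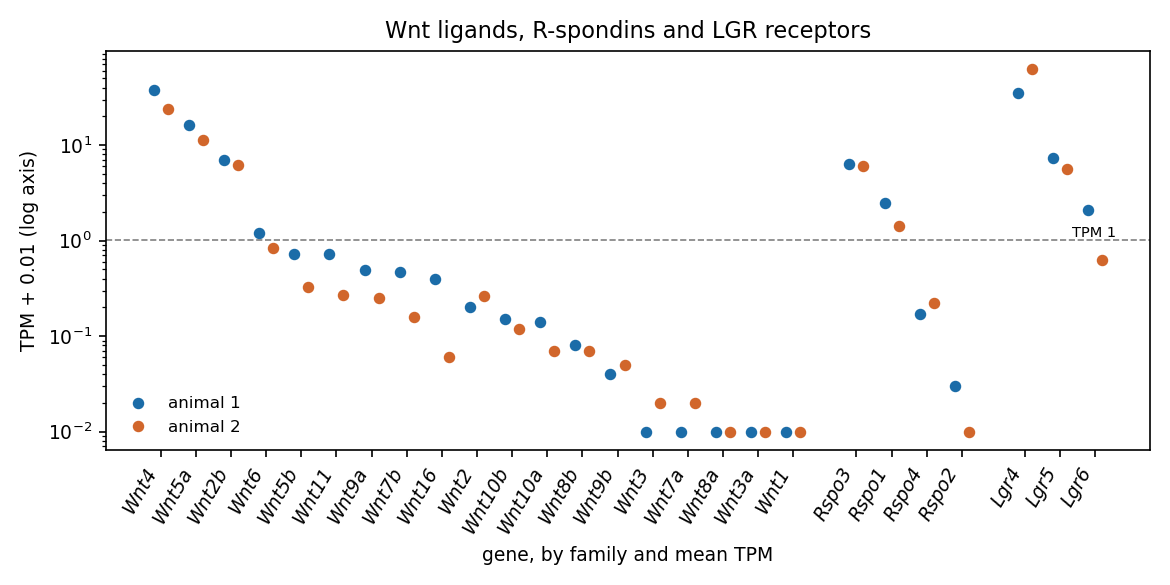
TPM plus 0.01 on a log axis for 19 Wnt ligands, 4 R-spondins and 3 LGR receptors, ordered within each family by mean level, with animal 1 in blue and animal 2 in orange; the dashed line marks a TPM of 1. Wnt4, Wnt5a and Wnt2b stand above the line in both animals, as do Rspo3, Rspo1, Lgr4 and Lgr5.

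Of 16 Frizzled receptors and co-receptors, 13 were detected. The canonical co-receptors Lrp5 and Lrp6 led, with 27.4 and 30.8 TPM for Lrp5 and 17.5 and 23.6 TPM for Lrp6, followed by Ryk at 16.45 and 17.6 TPM and Fzd4 at 6.17 and 7.91 TPM. Intervals lay apart with animal 1 higher for 3 of the 15 with enough counts and with animal 2 higher for 5, beside 12.3% and 20.7% over all genes. Among 15 genes of signal transduction and the destruction complex, where Axin2 and Ctnnb1 act, intervals lay apart with animal 2 higher for 10 and with animal 1 higher for none, beside 20.7% and 12.3% over all genes. Their median log2 ratio was 0.19 under TMM, where that of all genes was -0.01, and 0.42 under spike-in scaling, where that of all genes was 0.21. Csnk1a1, a kinase that marks β-catenin for destruction, led with 59.6 and 70.0 TPM. Fbxw11 had 31.9 and 35.45 TPM, Gsk3a 27.9 and 30.6 TPM and Tnks2 24.0 and 29.4 TPM.

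All 12 nuclear partners were detected, led by the co-repressor Tle3 at 33.9 and 44.8 TPM, with Bcl9l at 16.8 and 12.5 TPM, Tle2 at 10.3 and 17.6 TPM and Pygo2 at 12.6 and 12.3 TPM. Intervals lay apart for 2 with animal 1 higher and for 3 with animal 2 higher, near the 12.3% and 20.7% over all genes. Of 9 other target and feedback genes, 5 were detected and 8 were lower in animal 2 under TMM, 7 under spike-in scaling. The lower ones included Sp5 at a log2 ratio of -0.02 and Ascl2 on 22 and 5 counts. The median log2 ratio was -0.40 under TMM and -0.17 under spike-in scaling, where that of all genes was -0.01 and 0.21. Of the 8 with enough counts, 3 had separate intervals with animal 1 higher and 1 with animal 2 higher, beside 12.3% and 20.7% over all genes. Ccnd1, a cell cycle regulator, had 53.5 and 42.3 TPM, Tnfrsf19 21.6 and 15.0 TPM, and the feedback inhibitor Nkd1 12.2 and 9.98 TPM, each with separate intervals. Myc, a growth regulator with many inputs besides Wnt, went the other way, with 9.77 TPM in animal 1, against 20.2 TPM in animal 2.

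Secreted and cell-surface inhibitors were led by Frzb, which binds Wnt proteins outside the cell, at 66.0 and 54.6 TPM, above Wnt4 in both animals. Kremen1 had 5.69 and 5.75 TPM, Dkk3 5.40 and 5.74 TPM and Sfrp1 2.48 and 3.34 TPM. Of the 15 listed, 6 were detected.

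Markers of other tissue parts also differed between the animals. Of 9 capsule and stroma markers, 7 had separate intervals with animal 1 higher, beside 12.3% over all genes. The summed level of the 9 was 165 TPM in animal 1, against 142 TPM in animal 2. The capsular genes Rspo3 and Wnt2b had overlapping intervals, with log2 ratios of -0.16 and -0.24 under TMM and 0.06 and -0.02 under spike-in scaling. Rspo1, also capsular, had separate intervals with animal 1 higher, at -0.73 under TMM and -0.50 under spike-in scaling. Nr2f2, in the capsule and stroma list, had separate intervals with animal 2 higher, at 29.7 and 37.2 TPM. The 4 zona glomerulosa markers, the layer where Wnt4 is made, summed to 373 and 330 TPM, and Cyp11b2, which makes aldosterone, had 200 and 166 TPM. Hsd3b6, in the same list, had separate intervals with animal 2 higher, at 20.4 and 23.7 TPM, and under spike-in scaling 1 of the 4 was lower in animal 2. The 3 zona fasciculata markers summed to 4028 and 3407 TPM, with Cyp11b1 and Akr1b7 higher in animal 1 and Abcb1b higher in animal 2, at 262 and 358 TPM.

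Both markers of the X-zone, an inner layer of the mouse cortex, were higher in animal 2. Akr1c18 had 116 and 1034 TPM and Pik3c2g 1.52 and 13.2 TPM. All 5 adipocyte markers were higher in animal 1 with either scaling, with sums of 3072 and 1938 TPM. All 5 medulla markers were higher in animal 1 with TMM but 3 of 5 with spike-in scaling, and their sums were 1796 and 1517 TPM. In both the adipocyte and the medulla list, all 5 had separate intervals with animal 1 higher, beside 12.3% over all genes. The 5 striated muscle markers had a sum of 124 TPM in animal 1, against 0.09 TPM in animal 2, where Ckm, Atp2a1 and Myh2 were listed at 0. The 6 endothelial markers summed to 152 and 168 TPM, and the 5 kidney markers to 1.07 and 1.26 TPM, with Nphs1 and Slc12a1 at 0 in both. The part of these markers in the differences of the members was not tested.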

How the data were processed

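Total RNA of whole adrenal gland was sequenced in 2 libraries of 1 group, each from 300 ng of RNA with ERCC spike-ins, per the labels. The authors deposited a gene table and a first transcript table of expected counts, TPM, posterior mean TPM and the bounds of a TPM interval, per the file headers. The level of that interval is unknown here. The bounds, on a TPM scale and treated as a signal, were used as deposited. The deposited transcript tables also give each isoform's percent of its gene. A further transcript table, here the second, has estimated counts and TPM, also as the authors deposited them. Column names match those of RSEM for the former and kallisto for the latter, but program names were not given in the sources used. The build is mm10 with GENCODE M21, per the labels and the deposited description of the files.

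Of the gene table's entries, 26249 with a bare number for a name were left out, and 96 spike-ins served for scaling only. Expected counts were rounded and scaled with TMM (edgeR 4.0.16, R 4.3.3). Alternatives were DESeq2 1.42.0 size factors, spike-in totals (316894 and 256626 counts) and the second table. Log2 ratios are animal 2 over animal 1 with 0.5 added to counts. Scaling was tested on simulated data. Detection required 1 TPM or more in each library, and intervals were compared for genes that averaged at least 50 counts. Starts of transcripts within 200 bases of a promoter window's start were assigned to it. The members, lists and the naming rule (the members, the 4 most abundant genes of each pathway list, all genes of lists of 3 or fewer, 3 markers per list and 3 transcripts per member) were chosen with earlier results of these data known. Comparison of protein sequences was not run. Replicates are 1 library per animal, so spread between animals includes preparation, and reads without molecular identifiers make counts less precise than counting error implies. The kit keeps strand, but whether the counting used it is not given in the sources, and no gene overlapping a member exceeded 0.41 TPM.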

Additional observations from a re-analysis of the deposited data

How the results depend on the processing

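None of the 6 planned ratios between members changed sign under any alternative run. The ratio of Lgr4 over Wnt4, which was not among them, was below 1 in animal 1 in the gene table and above 1 in the second table. The values given next moved by more than the SD of the ratio over the 2 animals, a measure that is narrow for Znrf3 over Rnf43 and wide for Lgr4 over Lgr5. Without length correction, using expected counts, the log2 ratio of Rspo3 over Rspo1 was 2.54, Wnt4 over Rspo3 2.79, Znrf3 over Rnf43 2.77 and Ctnnb1 over Axin2 3.98; the construction, which leaves gene length in, accounts for this. In the second table Znrf3 over Rnf43 was 1.55, Ctnnb1 over Axin2 3.94 and Axin2 over Lef1 2.11. With posterior mean TPM, Znrf3 over Rnf43 was 1.59 and Axin2 over Lef1 1.73. Over protein-coding transcripts alone, Znrf3 over Rnf43 was 3.21, Ctnnb1 over Axin2 3.61 and Axin2 over Lef1 1.98. With 0.1 TPM added, Znrf3 over Rnf43 was 2.06. Apart from the counts, the cause was not tested. Leaving out either animal gave 1.36 to 2.09 for Rspo3 over Rspo1, 2.27 to 3.49 for Lgr4 over Lgr5, 2.10 to 2.15 for Znrf3 over Rnf43, 2.00 to 2.59 for Wnt4 over Rspo3, 4.26 to 4.52 for Ctnnb1 over Axin2 and 1.82 to 1.87 for Axin2 over Lef1.

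The count of members at least 2-fold apart was 0 under every alternative run except a fold of 1.5, which gave 3 (Wnt4, Rspo1 and Lgr4). At a detection threshold of 2 TPM, 8 members rather than 10 were detected. With a mean count of at least 200 required, 3 members rather than 4 had separate intervals. The members' median log2 ratio was 0.11 under spike-in scaling. The Wnt4 share of Wnt ligand TPM was 52.8% on average in the second table, an alternative chosen after seeing the data. All 10 levels were higher in the second table. They were also higher over nuclear protein-coding genes alone, which the smaller total of that scaling fixes in advance. No paired analysis was possible because the series has 1 group. Depth limits Rspo1 and Rnf43 most, at fewer than 200 counts per library.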
